A study of Mus musculus with 12 samples.

Results

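The dystrophin-glycoprotein complex was examined through 9 of its genes, namely *Dmd*, *Utrn*, *Dag1*, *Sgca*, *Sgcb*, *Sgcd*, *Sspn*, *Dtna* and *Sntb1*. They were chosen by name as parts of the complex, and all 9 were found among the 55367 gene symbols of the files and were among the 14427 genes tested. RNA was sequenced from 12 samples of fibers isolated from the extensor digitorum longus (EDL) muscle of C57BL/6 J mice, with 4 samples per group. The young group came from mice of 3 to 4 months. Both other groups came from aged mice of 26 to 28 months, whose fibers were stained with the calcium dye Fluo-4 and separated under a fluorescence stereomicroscope. Fluo-4 abnormal fibers, which the study met in male mice, stained unusually brightly, and Fluo-4 normal fibers did not. The labels name no genetic change or drug in any group. The comparison of abnormal with normal fibers asks what sets the bright fibers apart within aged muscle, and the comparisons with young fibers ask what age adds to either kind. The number of fibers and mice behind a sample was not stated, so p-values measure the spread between these samples. In RNA of this kind, fewer fibers that express a gene and less RNA per fiber cannot be told apart.

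The complex ties the contractile interior of a muscle fiber to the basal lamina around it. Dystrophin binds cytoskeletal actin at its N-terminal end and beta-dystroglycan at the other. Beta-dystroglycan spans the membrane, and alpha-dystroglycan outside the cell binds laminin through sugar chains. The sarcoglycans and sarcospan form a subcomplex in the membrane, whereas dystrobrevin and the syntrophins bind dystrophin from inside and recruit signaling proteins. Loss of dystrophin, of a sarcoglycan or of the sugar chains leaves fibers prone to damage on contraction and causes muscular dystrophy. Utrophin is the close relative of dystrophin that in mature fibers is found mainly at the neuromuscular and myotendinous junctions.

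Values were TPM, shares of the transcripts in a library after division by transcript length. Levels of different genes were set side by side on this scale. How evenly long and short transcripts were covered was not tested, so the order of genes of unlike length is a description. TPM keep no record of the read number. Depth is therefore unknown, and the counting error of a value cannot be estimated here. Changes are differences of log2(TPM + 1) from 1 limma fit of the 3 groups, and a gene was called at a Benjamini-Hochberg adjusted p under 0.05 over all tested genes. The samples were fiber RNA by their markers. The 7 myofiber markers, led by *Acta1*, summed to 179570 to 183350 TPM in young, 157090 to 180990 in normal and 183650 to 208840 in abnormal fibers, so that every abnormal sample was above every normal one. The share of TPM from mitochondrially-encoded genes went the other way, with means of 7.77% in young, 9.69% in normal and 5.82% in abnormal fibers. *Myh4*, the myosin of the fastest fibers, was called higher in abnormal than in normal fibers (0.66 on the log2 scale, SE 0.16, adjusted p = 0.0198). Endothelial markers summed to 2.76 to 19.2 TPM over all samples, satellite cell markers to 7.20 to 15.1, fibroblast markers to 13.6 to 82.4, Schwann markers to 3.59 to 16.1, smooth muscle and pericyte markers to 3.70 to 64.6, and immune markers to at most 3.43. No list had all its markers at 0, and no marker of satellite cells, endothelium, fibroblasts, smooth muscle or immune cells was called in any of the 3 comparisons. Fluo-4 normal replicate 1 was the lowest of the 12 samples for 7 of the 9 genes, and changes of these 7 that involve normal fibers are also given without it. The share of all tested genes that were lowest in that sample was not counted.

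The median of all tested genes was 0.10 on the log2 scale between abnormal and normal fibers, and 0.20 among the 5994 genes of at least 5 TPM. Scaling with TMM-type factors, which center most genes on 0, brings that median to 0 and lowers the change of each of the 9 genes in that comparison. The factor was lowest in Fluo-4 normal replicate 1 (0.809), and the next lowest was that of young replicate 4 (0.908). Low values in that normal sample were thus not particular to the 9 genes. Less the median of all tested genes, the changes between abnormal and normal fibers were 0.31 for *Sgca*, 0.34 for *Sgcb*, 0.29 for *Sgcd* and 0.42 for *Sspn*. They were 0.32 for *Dag1*, 0.13 for *Dmd*, -0.0049 for *Utrn*, -0.017 for *Dtna* and -0.20 for *Sntb1*. All but *Utrn* and *Sntb1* averaged above 5 TPM, where the median was 0.20, so their changes beyond genes of like level were lower.

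The genes differ greatly in size. In GRCm39 (GENCODE vM39), *Dmd* lies at chrX:81992474-84249747 on the plus strand, spans 2257 kb and has 79 exons in its 14945 bp canonical transcript. *Utrn* lies at chr10:12257537-12745265 on the minus strand, with 75 exons in 13544 bp. *Dag1* (chr9:108081833-108152333, minus strand) has 4 exons. The sarcoglycan genes *Sgca* (chr11:94853605-94867273), *Sgcb* (chr5:73790086-73805133) and *Sgcd* (chr11:46787080-47879796) lie on the minus strand with transcripts of 1497, 3790 and 1617 bp. *Sntb1* is at chr15:55499784-55771046 on the minus strand, *Dtna* at chr18:23548183-23793477 and *Sspn* at chr6:145877367-145910950, both on the plus strand. Each of the 9 overlaps at least 1 other annotated gene, and the libraries kept no strand, so reads of an opposite gene would be counted together with the member. The overlapping genes with a value in the files under their current symbol averaged at most 1.14 TPM (*Gm14769*, a pseudogene inside *Dmd*), and *Gm47898*, opposite *Dtna*, averaged 0.58 TPM. Others had no such value, among them *H1f9* opposite *Sgca* and *Gm61724* opposite *Dmd*, so their part in the members' reads is unknown. A search of the members' transcripts found a near-identical match in another gene only for *Dmd*. Its longest was 104 bp in *Gm61724*, which overlaps *Dmd* itself on the opposite strand.

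Per length, *Sgca* (alpha-sarcoglycan) was the highest of the 9 in every group, with 260.0 ± 12.4 TPM in young fibers (SD, n = 4). In young fibers *Dag1* followed with 76.4 ± 6.92 TPM, then *Dtna* with 57.1 ± 5.25 and *Sgcb* with 52.9 ± 5.75, and the ranges of *Dtna* and *Sgcb* overlapped. *Sspn* had 23.4 ± 2.95, *Sgcd* 16.6 ± 1.39 and *Dmd* 14.4 ± 1.84 TPM, and the ranges of *Sgcd* and *Dmd* overlapped. *Utrn* (1.67 ± 0.666 TPM) and *Sntb1* (0.308 ± 0.238 TPM) were last in all 3 groups. The order was not the same with age. In normal fibers *Dtna* stood second, overlapping *Dag1*, and *Sspn* stood behind *Dmd* and *Sgcd*, with overlap among all 3. In abnormal fibers *Sspn*, *Dmd* and *Sgcd* had means of 20.8, 19.8 and 19.6 TPM, and neighboring ranges overlapped.

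**Figure D1:**
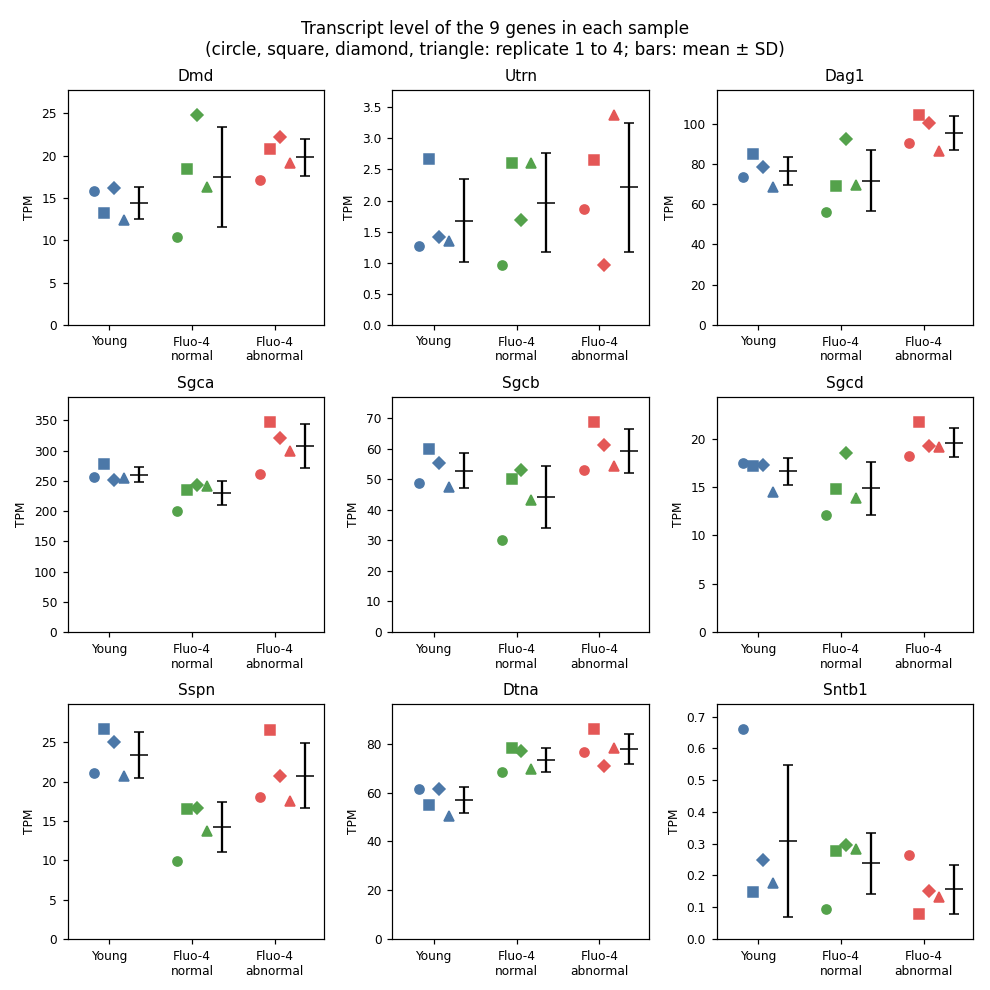
TPM of the 9 genes in each sample (y axes from 0), by group, with the mean and SD beside the 4 points. *Sgca* in abnormal fibers lies between 261 and 347 TPM, above every normal sample, *Dtna* is higher in both aged groups than in young fibers, and *Sspn* is lowest in normal fibers.

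Between abnormal and normal fibers, *Sgca* and *Dag1* rose 1.33-fold and 1.34-fold on TPM + 1 in the abnormal fibers, and *Sgcb*, *Sgcd* and *Sspn* had changes of like size that did not pass the test without pairing. *Dmd*, *Utrn*, *Dtna* and *Sntb1* did not pass it either. In all, 2 of the 9 genes were called, both higher, while 7.36% of all tested genes were called higher. Of the 5994 genes of at least 5 TPM, 848 were called higher. With TMM-type factors 0 of the 9 were called. The median change of the 9 was 0.39 on the log2 scale, beside 0.10 for all tested genes. In 3 of the 9 (*Sgca*, *Sgcb* and *Sspn*) every abnormal sample was above every normal sample, as in 11.5% of all tested genes. The same held for 1208 of the 5994 genes of at least 5 TPM.

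**Figure D2:**
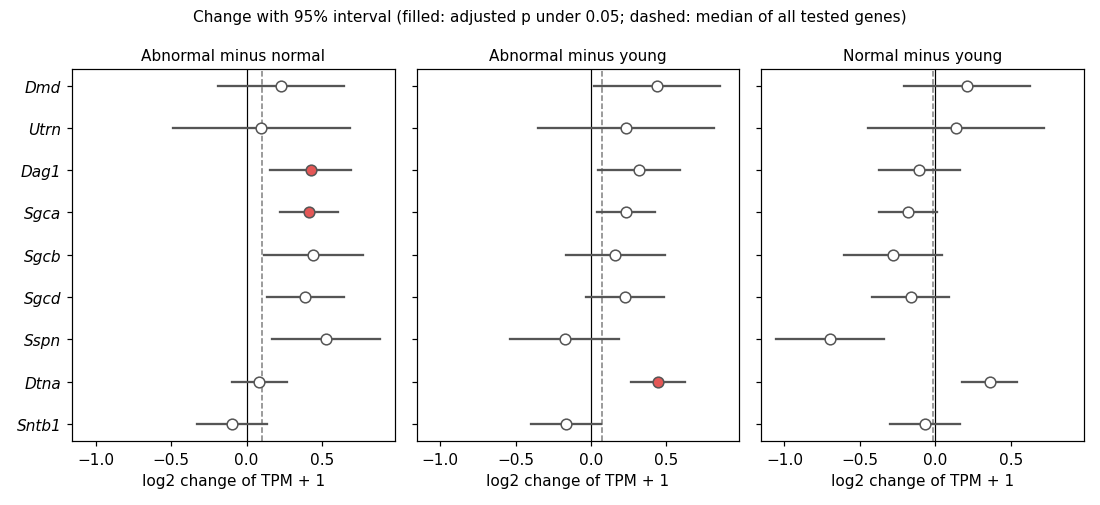
log2 change of TPM + 1 (x axis) with 95% interval for the 9 genes in the 3 comparisons. Filled points, *Dag1* (0.42) and *Sgca* (0.41) between abnormal and normal and *Dtna* (0.44) between abnormal and young fibers, passed the adjusted test, and the dashed line is the median of all tested genes.

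*Sgca* encodes alpha-sarcoglycan, a subunit found in striated muscle. Its level was 256, 278, 251 and 255 TPM in young replicates 1 to 4, 199.98, 236, 242 and 241 TPM in normal, and 261, 347, 322 and 300.3 TPM in abnormal fibers. The lowest abnormal sample was above the highest normal one, and normal replicate 1 was set apart below its group. The change was 0.41 on the log2 scale (SE 0.089, adjusted p = 0.0128), a 1.33-fold rise of TPM + 1. Without normal replicate 1 it was 0.35 (adjusted p = 0.0307). With TMM-type factors it was 0.19 (adjusted p = 0.178) and the call was lost.

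*Sgcb*, beta-sarcoglycan, had 48.8, 59.9, 55.3 and 47.6 TPM in young, 30.1, 50.03, 53.1 and 43.2 TPM in normal and 53.2, 68.7, 61.2 and 54.2 TPM in abnormal fibers. The groups of aged fibers touched at 53.1 and 53.2 TPM without overlap. The change was 0.44 (SE 0.15, adjusted p = 0.0846). It was 0.27 without normal replicate 1 and 0.22 with TMM-type factors. *Sgcd*, delta-sarcoglycan, had 17.4, 17.2, 17.3 and 14.5 TPM in young, 12.1, 14.8, 18.5 and 13.9 TPM in normal and 18.2, 21.7, 19.2 and 19.2 TPM in abnormal fibers. Normal replicate 3 reached into the abnormal range, and the other 3 normal samples lay below it. The change was 0.39 (SE 0.12, adjusted p = 0.0575), with 0.30 without normal replicate 1 and 0.18 with TMM-type factors.

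*Sspn*, sarcospan, a small membrane protein with several membrane spans that joins the sarcoglycans, had 21.1, 26.7, 25.1 and 20.7 TPM in young fibers. It had 9.87, 16.6, 16.6 and 13.8 TPM in normal and 18.1, 26.6, 20.8 and 17.5 TPM in abnormal fibers. All abnormal samples were above all normal ones, and they overlapped the young range. The change between abnormal and normal fibers was 0.52 (SE 0.17, adjusted p = 0.0658), 0.37 (adjusted p = 0.157) without normal replicate 1 and 0.31 with TMM-type factors.

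*Dag1* encodes the precursor of both dystroglycans. It had 73.5, 84.8, 78.5 and 68.7 TPM in young, 56.2, 69.0, 92.4 and 69.4 TPM in normal and 90.3, 104, 100.4 and 86.6 TPM in abnormal fibers. Normal replicate 3 overlapped the abnormal samples, which were otherwise the higher. The change was 0.42 (SE 0.12), and its adjusted p of 0.0495 was close to the threshold. The call was lost without normal replicate 1 (0.32, adjusted p = 0.123) and in 18 of 25 alternatives, TMM-type factors (0.20) among them.

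The labels number the aged samples 1 to 4 in both groups, and same-numbered samples deviated together, so the aged samples were also compared as pairs. *Sgca* was higher in abnormal fibers by 0.38, 0.56, 0.41 and 0.32 on the log2 scale in pairs 1 to 4, *Sgcb* by 0.80, 0.45, 0.20 and 0.32, and *Sspn* by 0.81, 0.65, 0.31 and 0.32. *Sgcd* was higher by 0.55, 0.52, 0.047 and 0.44, and *Dag1* by 0.67, 0.59, 0.12 and 0.32. These 5 genes were thus higher in 4 of 4 pairs, as were 27.9% of all tested genes, and pair 3 gave the smallest difference in *Sgcb*, *Sgcd*, *Sspn* and *Dag1*. With the pairs as a replicate block, all 5 were called, with adjusted p of 0.000971 for *Sgca*, 0.0122 for *Sspn*, 0.0135 for *Dag1*, 0.0159 for *Sgcb* and 0.0287 for *Sgcd*. The blocked fit called 1874 genes higher, against 1062 without the block.

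*Dmd*, the rod-like scaffold, had 15.8, 13.2, 16.2 and 12.45 TPM in young, 10.4, 18.4, 24.8 and 16.3 TPM in normal and 17.2, 20.8, 22.2 and 19.2 TPM in abnormal fibers. The normal samples spread over both the lowest and the highest value of the 12. The change between abnormal and normal fibers was 0.23 (SE 0.19, 95% interval from -0.19 to 0.65, adjusted p = 0.499). It was 0.015 without normal replicate 1, and 0.014 with TMM-type factors. Among 214 tested genes with transcripts of 10 kb or longer and at least 1 TPM, the median change was 0.35, beside 0.085 for 2081 genes under 2 kb, so the long *Dmd* transcript lay below the middle of its length class. The sarcoglycan genes *Sgca* and *Sgcd*, with transcripts under 2 kb, lay above theirs.

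*Utrn*, utrophin, had 1.27, 2.67, 1.41 and 1.35 TPM in young, 0.963, 2.605, 1.69 and 2.61 TPM in normal and 1.86, 2.65, 0.965 and 3.38 TPM in abnormal fibers. Each group held low and high samples, and the groups overlapped throughout. The change was 0.097 (SE 0.27, 95% interval from -0.49 to 0.68, adjusted p = 0.855), and it turned to -0.087 without normal replicate 1 and -0.044 with TMM-type factors. Young replicate 2, the highest young sample for *Utrn*, also had the highest sum of smooth muscle and pericyte markers, 64.6 TPM against 4.62 to 5.84 in the other young samples, and of endothelial markers in its group, 9.54 TPM against 4.21 to 6.03. Abnormal replicate 3, low in *Utrn*, had the lowest sums of both lists among all 12 samples, 3.70 and 2.76 TPM. Normal replicate 1, the lowest in *Utrn*, had 5.16 and 7.22 TPM, and its endothelial sum was above those of young replicates 1, 3 and 4, which had more *Utrn*. The part of other cells in the *Utrn* values was not tested. The ratio of *Utrn* to *Dmd* TPM averaged 0.119 ± 0.0561 in young, 0.116 ± 0.0425 in normal and 0.114 ± 0.0550 in abnormal fibers (SD, n = 4 each).

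*Dtna*, alpha-dystrobrevin, which binds dystrophin and carries syntrophins, had 61.3, 55.1, 61.3 and 50.5 TPM in young, 68.5, 78.3, 77.1 and 69.5 TPM in normal and 76.5, 85.9, 71.0 and 78.3 TPM in abnormal fibers. Both aged groups lay above all young samples and overlapped each other. The change between abnormal and normal fibers was 0.085 (SE 0.084, adjusted p = 0.556), and -0.14 with TMM-type factors. *Sntb1*, beta-1-syntrophin, an adaptor for signaling proteins, was below 1 TPM in all samples, with 0.660, 0.147, 0.248 and 0.177 TPM in young, 0.095, 0.276, 0.297 and 0.283 TPM in normal and 0.264, 0.080, 0.151 and 0.132 TPM in abnormal fibers. The groups overlapped, and at this level the log2 change of -0.097 (SE 0.11, adjusted p = 0.609) is held near 0 by the pseudocount of 1.

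**Figure D3:**
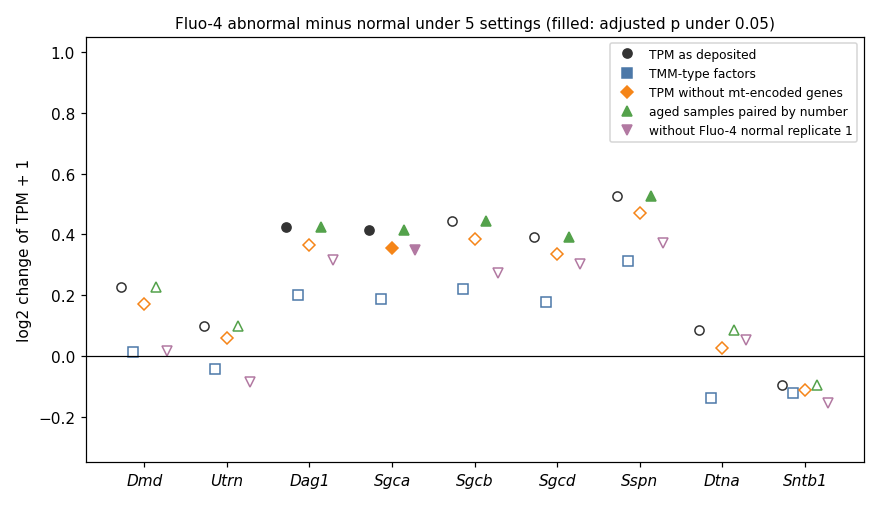
log2 change between abnormal and normal fibers (y axis) of the 9 genes under 5 settings, with filled symbols for an adjusted p under 0.05. *Sgca*, *Sgcb*, *Sgcd*, *Sspn* and *Dag1* stay above 0 in all 5, whereas *Dmd*, *Utrn* and *Dtna* come close to or below 0 with TMM-type factors.

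Ratios within a sample do not depend on how samples are scaled, so each member was set against *Sgca*, with no test, since *Sgca* was picked for its high level. *Sgcd* had like ratios to *Sgca* in the 3 groups, 0.0640 ± 0.00562 in young, 0.0644 ± 0.00836 in normal and 0.0640 ± 0.00430 in abnormal fibers (SD, n = 4 each). *Sgcb* had ratios of 0.203 ± 0.0169, 0.190 ± 0.0317 and 0.193 ± 0.0101, and *Dag1* of 0.294 ± 0.0193, 0.311 ± 0.0472 and 0.312 ± 0.0248, in the same order of groups. The ranges of these 3 ratios overlapped between all groups. Those of *Dmd*, *Utrn* and *Sntb1* overlapped too, but their means moved more. The *Dmd* ratio averaged 0.0556 ± 0.00866, 0.0750 ± 0.0211 and 0.0647 ± 0.00382 in the same order. For *Utrn* the means were 0.00636, 0.00841 and 0.00726, and for *Sntb1*, near the floor, 0.00120, 0.00101 and 0.000538.

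Only *Sspn* and *Dtna* had ratios without overlap between some groups. The *Sspn* ratio was 0.0826, 0.0958, 0.0999 and 0.0812 in young, 0.0494, 0.0703, 0.0686 and 0.0572 in normal and 0.0695, 0.0768, 0.0647 and 0.0583 in abnormal fibers. Every aged sample was below every young one, and the aged groups overlapped. The *Dtna* ratio was 0.240, 0.198, 0.244 and 0.198 in young, 0.343, 0.332, 0.318 and 0.288 in normal and 0.293, 0.248, 0.221 and 0.261 in abnormal fibers. All normal samples were above all young ones, and the abnormal samples overlapped both.

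**Figure D4:**
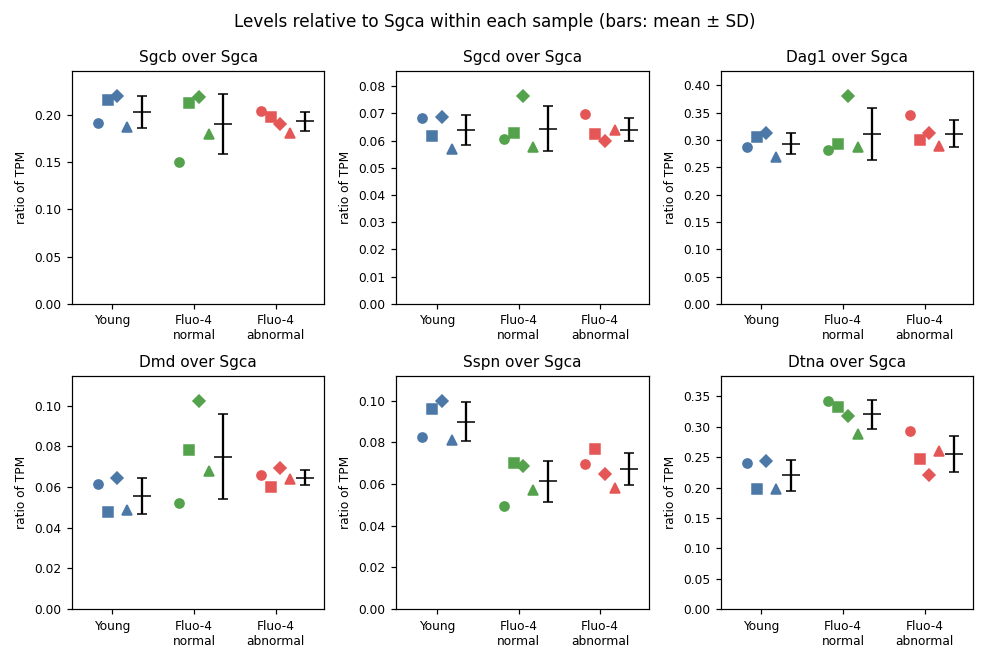
Ratio of TPM to *Sgca* within each sample (y axes from 0) for 6 genes, by group, with mean and SD. *Sgcb*, *Sgcd*, *Dag1* and *Dmd* overlap between groups, *Sspn* is lower in all 8 aged samples, and *Dtna* is highest in normal fibers.

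Against young fibers, 1 of the 9 genes was called in abnormal fibers, where 6.09% of all tested genes were called higher. Among the 5994 genes of at least 5 TPM, 614 were called higher. The median change of the 9 was 0.23, beside 0.074 for all tested genes and 0.12 for those of at least 5 TPM. The called gene was *Dtna*, at 0.44 on the log2 scale (SE 0.084, adjusted p = 0.00628) and 1.36-fold on TPM + 1. The call was kept in 25 of 25 alternatives, with adjusted p from 0.00334 to 0.0441. Schwann markers moved with this comparison. They summed to 6.75 to 14.1 TPM in abnormal and 3.59 to 5.52 TPM in young fibers, and 2 of 6 were called higher, *Mbp* (1.60, adjusted p = 0.00648) and *Sox10* (0.28, adjusted p = 0.0214), at means of at most 3.36 TPM. Their part in the *Dtna* values was not tested. *Dtna*, *Dmd*, *Dag1* and *Sgcd* had every abnormal sample above every young sample, as had 12.2% of all tested genes. So had 1155 of the 5994 genes of at least 5 TPM. *Dmd* had a change of 0.44 (SE 0.19, adjusted p = 0.197), *Dag1* 0.32 (SE 0.12, adjusted p = 0.141) and *Sgcd* 0.23 (SE 0.12, adjusted p = 0.284). *Sgca* was at 0.23 (adjusted p = 0.129), *Sgcb* at 0.16 (adjusted p = 0.581), *Utrn* at 0.23 (adjusted p = 0.661), *Sspn* at -0.17 (adjusted p = 0.587) and *Sntb1* at -0.16 (adjusted p = 0.408). With the aged pairs as a block, *Sgca* (adjusted p = 0.0173) and *Dag1* (adjusted p = 0.0499) were called too. The blocked fit called 1470 genes higher in this comparison, against 879 without the block. That fit takes the spread between pairs out of the error, so that its p-values against young fibers cover less than the spread between samples.

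Between normal and young fibers, which share the same young samples with the previous comparison, 0 of the 9 genes were called by limma. Of all tested genes 1.15% were called in either direction. An unadjusted limma p under 0.05 was found for 1865 of all 14427 genes and for 2 of the 9. The 2 were *Sspn*, which changed by -0.70 (SE 0.17, adjusted p = 0.0648), and *Dtna*, which changed by 0.36 (SE 0.084, adjusted p = 0.06). *Sspn* had a mean of 14.2 ± 3.18 TPM in normal and 23.4 ± 2.95 TPM in young fibers. All normal samples were below all young ones in *Sspn* and *Sgca*, as in 4.96% of all tested genes, and above them in *Dtna*, as in 3.03%. Of the 5994 genes of at least 5 TPM, 532 lay wholly below and 212 wholly above. With the aged pairs as a block, *Sspn* (adjusted p = 0.0105) and *Dtna* (adjusted p = 0.0332) were called, and with TMM-type factors as well (adjusted p = 0.019 and 0.0189). Over all tested genes the block gave 512 calls and TMM-type factors 236, against 166 in the main fit. The other changes were -0.18 for *Sgca*, -0.28 for *Sgcb*, -0.16 for *Sgcd*, -0.11 for *Dag1*, 0.21 for *Dmd*, 0.14 for *Utrn* and -0.067 for *Sntb1*, with adjusted p from 0.421 to 0.89. Most of the changes moved without normal replicate 1, to -0.12 for *Sgca*, -0.11 for *Sgcb*, -0.078 for *Sgcd*, 0.0015 for *Dag1*, 0.42 for *Dmd* and 0.32 for *Utrn*, and *Sspn* was then at -0.55. The median of the 9 was -0.11 beside -0.018 for all tested genes.

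By the study's own criteria, a 2-fold difference from young fibers and an unadjusted p under 0.05 between abnormal and normal fibers, 0 of the 9 genes qualified, against 3.29% of all tested genes. The ratio of abnormal to young means was between 0.509 (*Sntb1*) and 1.38 (*Dmd*).

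The promoters of *Sgca*, *Sgcb* and *Sspn*, are shown because these were the 3 of the 9 genes with no overlap between abnormal and normal fibers. The windows run from 250 bases before to 50 after the start that RefSeq gives in GRCm38.p6, 5′ to 3′ on the gene's strand, and GRCm38.p6 coordinates are not those of GRCm39 above. Capitals mark E-boxes, the sequence CANNTG, bound by the MyoD family of muscle transcription factors among others, searched on both strands.
*Sgca*, chr11:94976278-94976577, minus strand: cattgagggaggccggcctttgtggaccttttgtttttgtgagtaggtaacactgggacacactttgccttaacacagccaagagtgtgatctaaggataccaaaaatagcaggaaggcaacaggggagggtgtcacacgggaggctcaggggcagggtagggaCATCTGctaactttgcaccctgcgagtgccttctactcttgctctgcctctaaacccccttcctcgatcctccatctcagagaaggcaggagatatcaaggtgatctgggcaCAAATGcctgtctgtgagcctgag
*Sgcb*, chr5:73647688-73647987, minus strand: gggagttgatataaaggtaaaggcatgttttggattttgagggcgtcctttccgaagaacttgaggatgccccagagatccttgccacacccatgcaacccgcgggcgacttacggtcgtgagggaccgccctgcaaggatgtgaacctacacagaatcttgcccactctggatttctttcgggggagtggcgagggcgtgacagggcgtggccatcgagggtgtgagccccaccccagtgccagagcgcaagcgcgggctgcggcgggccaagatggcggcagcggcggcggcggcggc
*Sspn*, first start, chr6:145931623-145931922, plus strand: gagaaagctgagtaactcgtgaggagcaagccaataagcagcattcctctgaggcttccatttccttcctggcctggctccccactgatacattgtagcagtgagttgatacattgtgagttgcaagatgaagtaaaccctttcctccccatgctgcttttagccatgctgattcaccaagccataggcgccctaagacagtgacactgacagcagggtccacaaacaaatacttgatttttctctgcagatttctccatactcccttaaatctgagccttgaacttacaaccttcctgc
*Sspn*, second start, chr6:145933872-145934171, plus strand: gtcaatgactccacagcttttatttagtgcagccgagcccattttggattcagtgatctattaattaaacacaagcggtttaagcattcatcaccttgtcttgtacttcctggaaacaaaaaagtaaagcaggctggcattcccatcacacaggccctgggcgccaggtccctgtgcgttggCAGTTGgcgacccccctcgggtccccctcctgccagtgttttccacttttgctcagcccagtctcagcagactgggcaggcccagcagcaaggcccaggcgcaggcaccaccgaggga
The *Sgca* window held 2 E-boxes, the *Sgcb* window 0, and the *Sspn* windows 0 and 1. Of all 32851 promoter windows of 300 bases, 72.3% held at least 1. No match to the MEF2 site or the CArG box was found in these 4 windows, while 3.19% and 1.63% of all windows held them. Of the *Dmd* windows, that at chrX:82948620-82948919 held 1 of each and 3 E-boxes. The other, at chrX:85048045-85048344, held 0 matches to any of the 3 motifs. A match describes letters and no binding was measured.

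Of 4 lists of other genes of the pathway, 57 of 60 genes were tested, and 8 were called higher and 0 lower between abnormal and normal fibers. In that comparison 7.36% of all tested genes were called higher, and 848 of the 5994 genes of at least 5 TPM. With TMM-type factors 2 of the 57 were called, and 0 with pairs and *Myh4* share both in the fit. The 11 further complex genes, with further sarcoglycans, syntrophins, beta-dystrobrevin, *Cav3* and *Nos1*, gave 0 calls by limma among 10 tested genes, with a median of 0.083. Their 1 unadjusted p under 0.05 stands beside 3693 among all 14427 genes. *Sgcz* was at 0 TPM in all samples. Between abnormal and young fibers *Sgce*, epsilon-sarcoglycan, named after its values were seen, was called (0.53, SE 0.15, adjusted p = 0.0495), with means of 2.05 ± 0.208 and 1.13 ± 0.356 TPM.

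Of the 18 genes that build the sugar chains of dystroglycan, 1 was called higher, a share near the 7.36% of all tested genes. A positive change was seen in 17 of the 18, beside 10043 of all 14427 genes and 4694 of the 5994 genes of at least 5 TPM, and the median was 0.23, beside 0.10 and 0.20. The called gene was *B3galnt2*, which adds N-acetylgalactosamine to the chain on O-mannose. It had 46.7, 55.1, 48.6 and 39.5 TPM in young, 29.5, 30.9, 33.2 and 26.6 TPM in normal and 49.4, 45.4, 36.5 and 42.1 TPM in abnormal fibers. The normal samples were below all others, and the abnormal and young samples overlapped. The gene was higher in abnormal than in normal fibers (0.51, SE 0.11, adjusted p = 0.0152) and lower in normal than in young fibers (-0.64, SE 0.11, adjusted p = 0.018). It was the 1 gene of the 57 called between normal and young fibers. In that comparison 15 of the 18 had a negative change, beside 7945 of all 14427 genes and 3949 of the 5994 genes of at least 5 TPM.

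Of the 12 basal lamina ligands and matrix partners, 0 were called by limma between abnormal and normal fibers, with a median of 0.11. An unadjusted limma p under 0.05 was found for 3693 of all 14427 genes and for 1 of the 12. The smallest p was that of *Col6a2*, a collagen VI chain made mainly by fibroblasts, with means of 1.07 ± 0.498 TPM in normal and 2.12 ± 0.701 TPM in abnormal fibers (0.60, SE 0.27, adjusted p = 0.182), and its groups overlapped.

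The costamere and filament linkers, which anchor the outermost myofibrils at the membrane beside the complex, held most of the calls. Of 17 tested genes, 7 were called higher and 0 lower in abnormal fibers, with a median of 0.41. Over all tested genes 7.36% were called higher, with a median of 0.10. Among the 5994 genes of at least 5 TPM, 848 were called higher, with a median of 0.20. The linkers were not set against genes of like transcript length. The median was 0.28 for tested genes with transcripts of 5 to 10 kb and 0.35 for those of 10 kb or longer, at 1 TPM or more. With TMM-type factors at most 2 of the 7 linker calls were left. *Sync*, syncoilin, a filament protein that binds alpha-dystrobrevin, had 21.9, 27.9, 29.9 and 24.4 TPM in normal and 34.7, 43.8, 41.2 and 43.3 TPM in abnormal fibers. Its change was 0.63 (SE 0.12, adjusted p = 0.00593), with no overlap. *Vcl*, vinculin, had 8.02, 10.9, 10.6 and 12.3 TPM in normal and 17.6, 18.1, 14.1 and 17.3 TPM in abnormal fibers (0.64, SE 0.13, adjusted p = 0.00831). *Itga7*, the integrin chain that forms the other laminin receptor of muscle, had 36.6, 33.1, 33.7 and 41.1 TPM in normal and 52.0, 56.3, 43.6 and 62.1 TPM in abnormal fibers (0.55, SE 0.11, adjusted p = 0.00899). The groups did not overlap in either gene.

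Its partner *Itgb1* (0.47, adjusted p = 0.0225) and *Tln2*, talin 2, which links integrins to actin (0.68, adjusted p = 0.0235), were called too. The other 2 calls were *Des*, desmin, and *Synm*, synemin, named after their values were seen (0.38 and 0.88, adjusted p = 0.028 and 0.0343). Against young fibers *Itga7*, *Des*, *Sync* and *Flnc* of this list were called higher in abnormal fibers (0.60, 0.50, 0.46 and 0.80, adjusted p = 0.00541, 0.00779, 0.0282 and 0.0383). With *Sgce* these made 5 of the 57, where 6.09% of all tested genes were called higher. With the pairs as a block, the pathway genes called numbered 13 between abnormal and normal, 10 between abnormal and young and 4 between normal and young fibers, against 8, 5 and 1 without it. Over all tested genes the calls rose too, to 2281, 1998 and 512 with the block, against 1349, 1226 and 166 without it.

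**Figure D5:**
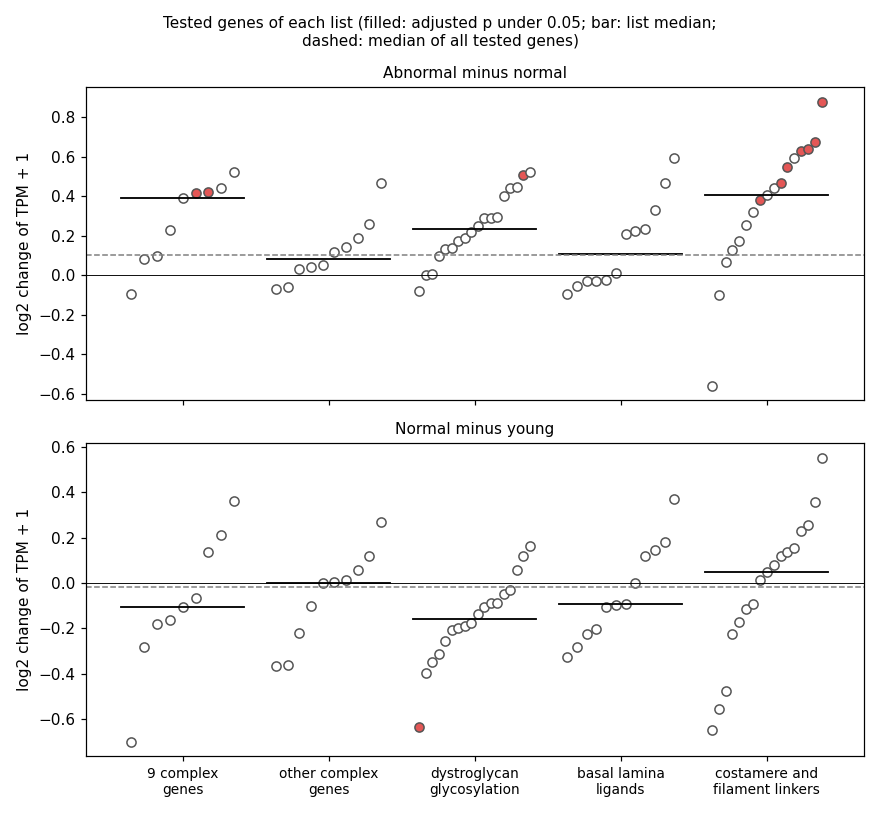
log2 change of TPM + 1 (y axis) of each tested gene, ordered within its list, between abnormal and normal fibers (top) and normal and young fibers (bottom). In the top panel 7 of 17 linkers and 2 of the 9 complex genes are filled as called, and the bars mark list medians of 0.39, 0.083, 0.23, 0.11 and 0.41 from left to right.

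Over the 12 samples, the genes of at least 5 TPM whose log2 values went most closely with *Dmd* were *Trib1*, *Klhl9* and *Acadsb*, with Pearson r of 0.96, 0.94 and 0.94, the highest of 5993 genes. For *Utrn* they were *Hnrnpl*, *Gsn* and *Id1*, with r of 0.91, 0.87 and 0.87 among 5994 genes. Each is a description picked as the highest of many, over samples that share the same group structure. *Trib1* had its lowest and highest values within normal fibers (5.32 and 18.7 TPM), as *Dmd* had.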

How the data were processed

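The authors made SMART-Seq v4 libraries, which keep no strand, from 10 ng RNA of isolated EDL fibers. Reads were mapped to GRCm39 by DRAGEN 4.3, and the deposited values are TPM per gene symbol, 1 file per sample. The annotation release is not given in the sources used here. TPM of each sample summed to 1000000 and keep no depth, so their precision cannot be read from read numbers, and TPM are shares: a rise of some genes lowers others.

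Lines of the same symbol (114 symbols) were summed. Symbols were classed with GENCODE vM39 and RefSeq, which left 2885 unmatched with 0.243% to 0.298% of TPM. Protein-coding and mitochondrially-encoded genes with a group mean of at least 0.02 TPM were fitted as log2(TPM + 1) with limma 3.58.1 in R 4.3.3 (3 groups, variance trend, Benjamini-Hochberg adjustment), which was tested on simulated data. BLAST 2.17.0 was used to look for copies (95% identity, 100 bp or longer). Figures were drawn in matplotlib 3.10.9 under Python 3.11.15, with numpy 2.4.6 and pandas 2.3.3.

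The members, lists and alternatives were chosen with earlier results of these data known. Named were the 9 members, of each list up to 5 called genes with the smallest p between abnormal and normal fibers (or 1 where none was called), and 3 genes most correlated with *Dmd* and with *Utrn*. The gene this rule gives for 1 list is not reported here. Deviations from group means over 4468 genes correlated at 0.507, 0.416, 0.464 and 0.326 between same-numbered abnormal and normal samples. Between abnormal and normal samples of different numbers they correlated at -0.43 to 0.28. Between aged and young samples, which cannot share a mouse, the range was -0.247 to 0.317, and the same-numbered ones reached 0.236. The aged samples were therefore also compared as pairs, as an alternative, whereas the main fit held no block. Nothing states that a number marks a mouse. Alternatives were TMM-type factors, TPM rescaled without mitochondrially-encoded genes, a filter of 5 TPM or none, a pseudocount of 0.1, all annotated genes, replicate blocks, the *Myh4* share as covariate, removal of a length and GC trend, only the groups compared, and leaving out each sample.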

Additional observations from a re-analysis of the deposited data

Results flagged for a closer look

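In 5 of 27 gene and group combinations, 1 sample stood apart from the other 3 of its group by Dixon's criterion, which chance exceeds in about 1 of 20. *Utrn* was at 2.67 TPM in young replicate 2, beside 1.41 TPM in the next young sample. *Sgca* was at 278.29 TPM in young replicate 2 and at 199.98 TPM in Fluo-4 normal replicate 1, next to 255.62 and 235.74 TPM. *Sgcd* was at 14.528 TPM in young replicate 4, next to 17.2 TPM. *Sntb1* was at 0.095 TPM in Fluo-4 normal replicate 1, next to 0.276 TPM.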

How the results depend on the processing

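Of the single calls, *Sgca* between abnormal and normal fibers was kept in 22 of 25 alternatives, *Dag1* in 7 of 25 and *Dtna* between abnormal and young fibers in 25 of 25. Genes called between abnormal and normal fibers numbered 2 of 9 and, of the pathway lists, 8 of 57. With TMM-type factors these were 0 and 2, and of all genes 848 were called with 306 higher, against 1349 with 1062 higher. They were 1 of 9 with scaling without mitochondrially-encoded genes, with no filter or with all annotated genes, 5 with a 5 TPM filter, 0 and 4 with only the groups compared, and 1 to 4 and 4 to 11 when 1 sample was left out. With the replicate block of aged pairs they were 5 and 13, with the block over all groups 5, with block and length and GC trend 5, with the *Myh4* share 3 of 9 (*Sgca*, *Sgcb* and *Sspn*), and with block and share 0 and 0. Against young fibers, abnormal fibers gave 1 of 9 and 5 of 57: with TMM-type factors 2 listed genes, with all annotated genes 3, with the block 3 and 10, over all groups 2 and 9, with the *Myh4* share 2 and 8, with block and share 2, with block and trend 2 and 10, and leaving out 1 sample 1 to 2 and 2 to 9. Normal fibers gave 0 and 1: with TMM-type factors or a 5 TPM filter 2 and 2, with pseudocount 0.1, the *Myh4* share or the trend 1 of 9, with the block 2 and 4, over all groups 1 and 2, with block and trend 2 and 5, with block and share or only the groups compared 0 listed genes, and leaving out 1 sample 0 and 0 to 2. Without Fluo-4 normal replicate 3, 4 of 9 were called between abnormal and normal fibers (*Dag1*, *Sgca*, *Sgcb* and *Sgcd*), and without any 1 of the other 11 samples 1 was (*Sgca*). Without abnormal replicate 1, 2 were called against young. Listed genes between abnormal and normal fibers were 5 without normal replicate 1 or abnormal replicate 3 and 4 without abnormal replicate 2. Between abnormal and young fibers they were 9 without normal replicate 1, 2 without young replicate 4 or abnormal replicate 2 or 4, and 3 without young replicate 1, 2 or 3, abnormal replicate 3 or normal replicate 4. Between normal and young fibers they were 2 without normal replicate 1, and 0 without young replicate 1, 2 or 3 or normal replicate 4.

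Some uncalled values changed sign. Between abnormal and normal fibers, *Utrn* was -0.044 with TMM-type factors, -0.084 with the length and GC trend removed (with or without block), and from -0.087 to 0.31 when 1 sample was left out, *Sntb1* 0.044 with the *Myh4* share and 0.18 with block and share, and *Dtna* -0.14 with TMM-type factors. *Sgcb* was -0.010 against young with TMM-type factors. Between normal and young fibers *Dmd* was -0.0048 and *Utrn* -0.0099 with the *Myh4* share, *Dag1* ranged from -0.23 to 0.0015 (without normal replicate 1) and *Sntb1* from -0.12 to 0.053 (without young replicate 1) when 1 sample was left out. The causes were not tested. The block changed no other call of the 9 genes than those named above and in the text. Depth is unknown, so low values such as *Sntb1* have no stated precision.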
